A study of Mus musculus with 2 samples.

Results

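The genes described here encode non-collagen proteins of cartilage and connective tissue matrix: aggrecan (Acan), versican (Vcan) and the link protein Hapln1, the cartilage proteins matrilin 4 (Matn4) and chondromodulin (Cnmd), and the small leucine-rich proteoglycans decorin (Dcn), biglycan (Bgn), lumican (Lum), fibromodulin (Fmod) and osteoglycin (Ogn). They were chosen by symbol, and all 10 were among the 13916 protein-coding genes of the authors' deposited comparison of distal with proximal. The samples were mouse limb-mesenchymal organoids, grown from embryonic limb mesenchymal cells of genotype Slc:ICR for 48 h in medium with Fgf8b and Wnt3a. These conditions were common to both sides. On day 2, 5 organoids from 4 surrogate cultures were frozen, and distal or proximal areas of 10 µm sections were lit with ultraviolet light in photo-isolation chemistry, which yields amplified cDNA only from lit areas. The distal library pooled 5 barcoded regions and the proximal library another 5. The labels do not tie regions to organoids or cultures. The p-values therefore measure only the spread between regions, and the side cannot be told apart from the library.

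Cartilage resists compression because aggrecan, which carries many chondroitin sulfate chains, is held along strands of hyaluronan by link protein. Versican builds a looser, water-rich matrix of the same plan and is typical of embryonic mesenchyme and of condensations that precede cartilage. Small leucine-rich proteoglycans bind collagen fibrils, help set their thickness and spacing, and are typical of perichondrium, tendon, dermis and other connective tissues.

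Depth differed between the sides. Size factors, which scale a region's counts to a common depth, were 0.832 to 0.329 for the distal regions and 2.42 to 1.502 for the proximal regions, and their sum was 3.30 times larger in proximal. For 8 of the 10 genes, all but Vcan and Matn4, the whole counts of each region were recovered, because a single set of counts gave the deposited mean, log2 change and standard error at once. Counts below run from the deepest to the shallowest region of a side, and a normalized count is a count divided by its region's size factor. A total of 3 counts is worth a normalized level of 1.02 in distal and 0.311 in proximal. To describe the labelled cell type, 8 limb mesenchyme markers were searched, and all 8 were in the table. The tendon marker Tnmd, with 1 count in all, was in the table too, so presence alone is no check. Prrx1 had a mean of 159, Msx1 one of 121 and Twist1 one of 74.0 in the authors' deposited table, while Pitx1 had 0 distal and 22 proximal counts. At an adjusted p under 0.05, the threshold for a call throughout, the authors' deposited table called 3 of the 8: Msx1 was higher in distal (log2 change 1.12, adjusted p 2.09e-08), and Tbx5 (-1.41, adjusted p 0.00199) and Pdgfra (-0.86, adjusted p 3.94e-06) were higher in proximal.

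None of the 10 genes was called in the authors' deposited table, whose column names are those DESeq2 writes, and 0.977% of all genes did. At an unadjusted p under 0.05 there were 3 genes, Bgn, Acan and Dcn, all with lower values in distal. Of all genes in the authors' deposited table, 6.07% had an unadjusted p under 0.05, 2.56% with higher values in distal and 3.51% with higher values in proximal. The median log2 change was -0.71 over the 10 genes and 0.07 over all genes, again in the authors' deposited table. It was -1.18 over the 7 of the 10 genes with a mean of at least 1, and -0.05 over the 2 with a mean of at least 10, Vcan and Matn4. Over all genes the median was -0.03 at a mean of at least 1 and 0.005 at a mean of at least 10. The most abundant members, Vcan and Matn4, had log2 changes near 0 and narrow intervals, while the larger changes belonged to genes with few counts. Fewer cells of a type and less RNA per cell cannot be told apart in these regions.

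**Figure D1:**
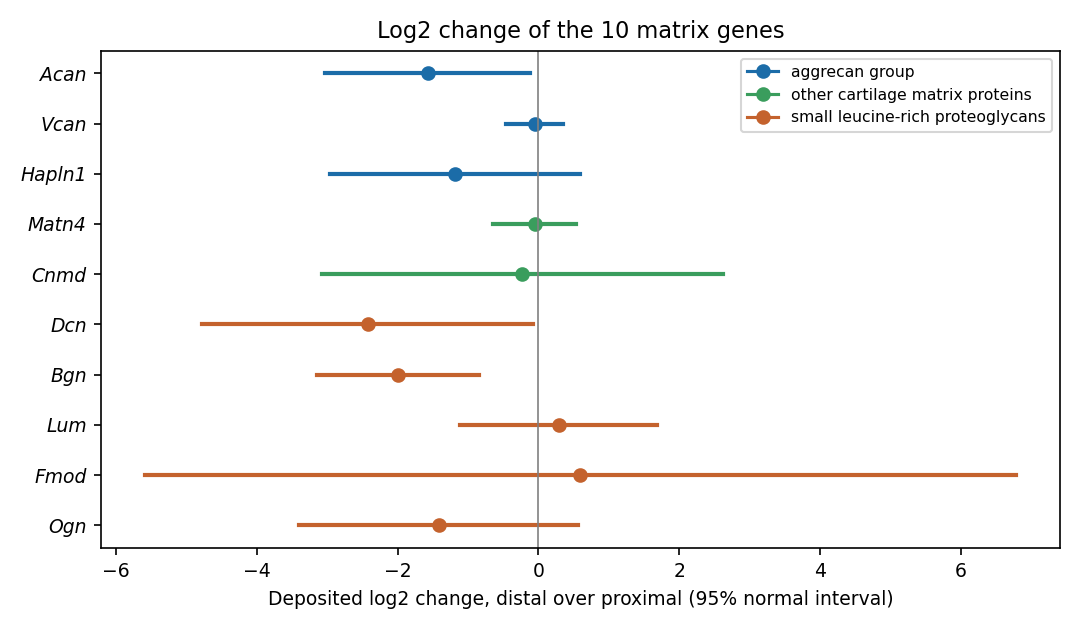
Log2 change of distal over proximal for each of the 10 genes in the authors' deposited table (x axis), with a 95% normal interval computed from the deposited standard error and coloured by group of protein. Vcan and Matn4 sit close to 0 with short bars, and the bars of Bgn, Acan and Dcn lie below 0. Dcn had no distal counts, so its bar depends on the smallest fitted mean allowed.

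Acan (ENSMUSG00000030607, chr7:79053483-79115099 on GRCm38, plus strand) is the large aggregating proteoglycan of cartilage. Its counts were 1, 5, 1, 0 and 0 in the distal regions and 20, 16, 20, 10 and 3 in the proximal regions. The sides overlapped: the distal region with 5 counts stood level with the middle of the proximal range, and the other 4 distal regions lay below every proximal region. Normalized counts were 2.03 ± 2.97 in distal and 6.82 ± 3.05 in proximal (SD, n = 5 regions a side). In the authors' deposited table the log2 change was -1.57 (standard error, SE, 0.74), the unadjusted p 0.0345 and the adjusted p 0.790. Leaving out 1 region at a time, the refitted log2 change ran from -2.92, without the distal region of 5 counts, to -1.29. The unadjusted p stayed under 0.05 in 4 of 10 refits and reached 0.0911. The refits kept the size factors and the estimate of spread from all regions.

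Hapln1 (ENSMUSG00000021613, chr13:89539796-89611652, plus strand), the link protein that locks aggrecan and versican onto hyaluronan, had counts of 0, 5, 1, 0 and 0 in distal and 14, 19, 4, 7 and 2 in proximal. Most of its distal counts, 5 of 6, came from the same region that held most of the distal Acan counts. Normalized counts were 1.79 ± 3.10 in distal and 4.45 ± 2.94 in proximal (SD, n = 5 regions a side), and the sides overlapped. In the authors' deposited table its log2 change was -1.18, the standard error 0.91 and the adjusted p 0.991. Over the refits without 1 region, the log2 change ran from -2.97, without the distal region of 5 counts, to -0.79.

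Vcan (ENSMUSG00000021614, chr13:89655312-89742509, minus strand), versican, was the most abundant member, with a mean of 171 in the authors' deposited table, above the means of 99.7% of all genes there. Levels computed from the mean and the log2 change were about 167 in distal and 174 in proximal. The deposited log2 change was -0.05 (SE 0.21, adjusted p 0.991, by the authors' deposited table), and its 95% interval ran from -0.46 to 0.35. The intervals of Acan and Hapln1 were wider and ran from -3.03 to -0.12 and from -2.96 to 0.59. Vcan overlaps the antisense gene Gm4117 and the pseudogene Gm16318, and Hapln1 the pseudogene Gm8546 on the other strand, so reads there cannot be assigned to a gene with certainty.

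Matn4 (ENSMUSG00000016995, chr2:164389393-164405160, minus strand), a matrilin that forms filaments linking other matrix molecules, had a mean of 32.9 in the authors' deposited table. Its computed levels were 32.3 in distal and 33.5 in proximal. The log2 change in the authors' deposited table was -0.05, the standard error 0.30 and the adjusted p 0.994, with a 95% interval from -0.64 to 0.54. Matn4 overlaps the coding gene Rbpjl on the other strand, and the use of strand in counting is not given in the sources used here, so its value is uncertain. Cnmd (ENSMUSG00000022025, chr14:79637690-79662170, minus strand) encodes chondromodulin, an inhibitor of vessel growth in avascular cartilage. Its counts were 1, 0, 1, 0 and 0 in distal and 3, 5, 1, 0 and 0 in proximal, so the sides overlapped. The ratio of distal to proximal per size factor was 0.733, with an exact 95% counting interval of 0.0770 to 3.54, and a difference was not detectable at this depth.

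Among the small leucine-rich proteoglycans, Bgn had the most counts. Bgn (ENSMUSG00000031375, chrX:73483602-73495933, plus strand), which binds collagen and growth factors in bone, cartilage and connective tissue, had counts of 4, 3, 0, 2 and 0 in distal and 35, 27, 19, 25 and 11 in proximal. The sides did not overlap: the highest distal region had 4.81 normalized counts and the lowest proximal region 7.32. Normalized counts were 2.60 ± 2.40 in distal and 11.9 ± 3.50 in proximal (SD, n = 5 regions a side). Summed over regions, proximal was 3.94-fold higher per size factor, with an exact 95% counting interval of 2.01 to 8.84. The log2 change was -1.99 (SE 0.58) according to the authors' deposited table, with an unadjusted p of 0.000646, and its adjusted p of 0.0648 missed the threshold. Adjusting the deposited p-values only where the mean was at least 1 gave 0.0428. Subtracting the median of all genes, 0.07, from each log2 change gave 0.0434. The call for Bgn therefore depended on these choices. The subtracted median takes in the sparsest genes, and a single count gave a positive log2 change on either side, 2.34 for distal and 1.19 for proximal. Without genes of a mean under 1 the median was -0.03, and without those under 10 it was 0.005. Calls centred on these 2 medians were not computed.

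Dcn (ENSMUSG00000019929, chr10:97479609-97518143, plus strand), decorin, which coats collagen fibrils and binds transforming growth factor beta, was listed at 0 in each distal region and at 4, 3, 5, 2 and 3 counts in the proximal regions. Every proximal region held decorin counts and no distal region did, so the sides did not overlap. With distal set at 3 counts over its regions, Dcn was at least 1.72-fold lower in distal, and with 5 counts the bound was 1.03-fold. The authors' deposited table gave an unadjusted p of 0.0435 and an adjusted p of 0.866. In refits without 1 region the unadjusted p stayed under 0.05 in 4 of 10 and reached 0.0812. With no distal counts, the fitted log2 change and its p depend on the smallest fitted mean allowed, 0.5 counts. These refits are therefore not a check of the distal values of Dcn. If the sides were equal, the 17 counts would put 3.96 in distal.

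Lum (ENSMUSG00000036446, chr10:97565128-97572703, plus strand), lumican, a keratan sulfate proteoglycan known for its role in the cornea and skin, had counts of 1, 1, 4, 2 and 1 in distal and 9, 4, 2, 5 and 5 in proximal. It was the only small leucine-rich proteoglycan of the 5 with counts in all 10 regions. Normalized counts were 3.35 ± 2.41 in distal and 2.61 ± 1.15 in proximal (SD, n = 5 regions a side), and the sides overlapped. Its log2 change in the authors' deposited table was 0.29 (SE 0.71), with an adjusted p of 0.991 and a 95% interval from -1.11 to 1.69.

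Ogn (ENSMUSG00000021390, chr13:49608046-49624501, plus strand), osteoglycin, had counts of 1, 1, 0, 1 and 0 in distal and 9, 3, 9, 2 and 4 in proximal. Its ratio of distal to proximal per size factor was 0.366, with an exact 95% counting interval of 0.0711 to 1.19, and the sides overlapped. The authors' deposited table listed an adjusted p of 0.991. Ogn overlaps Cenpp, a coding gene on the other strand, so its value is uncertain too. Fmod (ENSMUSG00000041559, chr1:134037254-134048277, plus strand), fibromodulin, a fibril-binding proteoglycan typical of tendon, had 2 counts in all, in a single proximal region. Both sides stood at 3 counts or fewer, so no fold is given, and the positive sign of its log2 change in the authors' deposited table, 0.60, does not follow its counts.

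**Figure D2:**
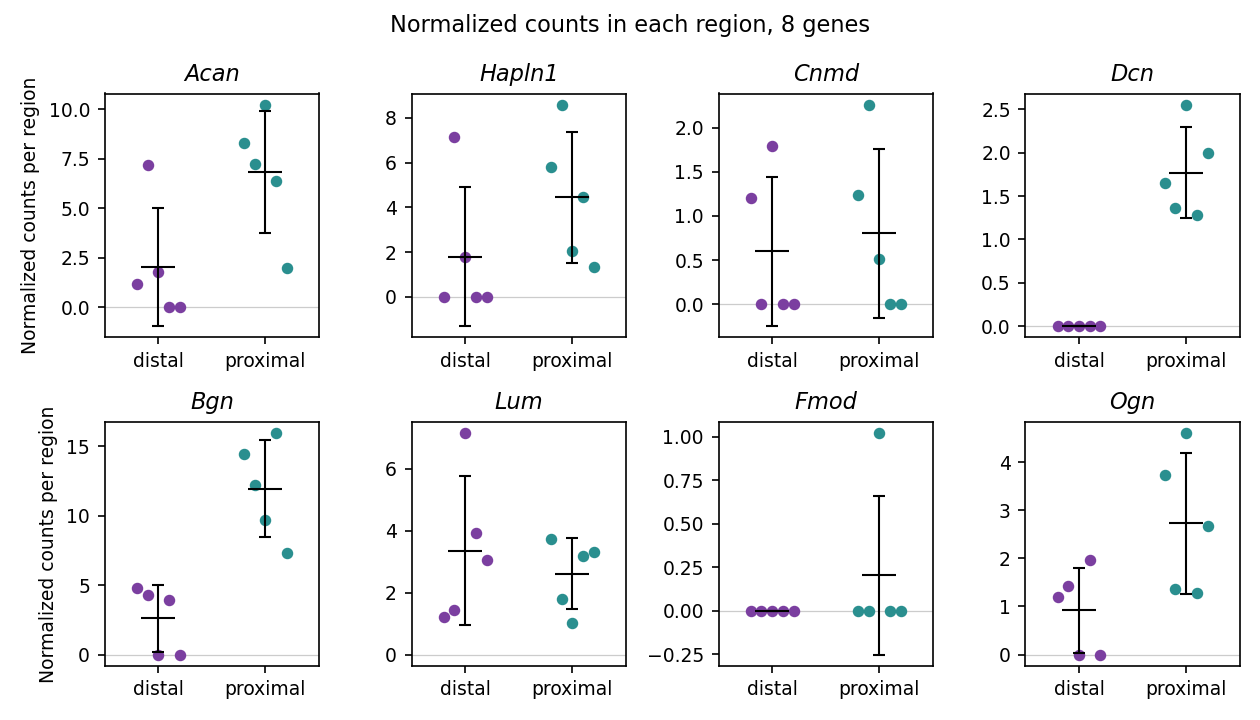
Normalized counts (y axis, a separate scale for each gene) in the 5 distal and 5 proximal regions for the 8 genes with recovered counts, with the mean and SD of each side as a black bar. The sides are apart for Bgn and Dcn and overlap for the other 6 genes, and 1 distal region stands above the rest for Acan and Hapln1. How often the sides are apart among all genes was not computed, so the number of such genes is not read as a result.

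Several of these genes lie side by side on GRCm38, in the gene pairs and clusters known for both families. Hapln1 and Vcan are neighbours on chromosome 13, 43.7 kb apart, and Dcn and Lum on chromosome 10, 47.0 kb apart, with no coding gene between them in either pair. Dcn was at 0 in distal while Lum had 9 distal counts, but the difference between the genes was not tested. Ogn follows Ecm2, Aspn and Omd on chromosome 13, all on the plus strand. Aspn (asporin), a relative of decorin and biglycan, had 9 distal and 76 proximal counts, and its log2 change in the authors' deposited table was -1.36 (SE 0.61, adjusted p 0.686). Omd (osteomodulin) had 8 distal and 22 proximal counts, with a ratio of distal to proximal per size factor of 1.20 and an exact 95% counting interval of 0.461 to 2.80. Ecm2 had 1 distal and 9 proximal counts. Like Ogn, Aspn, Omd and Ecm2 overlap Cenpp. On chromosome 1 Prelp, a proteoglycan that anchors basement membranes to collagen, is the neighbour of Fmod among coding genes, at 115.84 kb. Prelp had counts of 1, 0, 1, 1 and 0 in distal and 20, 12, 10, 7 and 5 in proximal, with no overlap of the sides. Its ratio of distal to proximal per size factor was 0.183, with an exact 95% counting interval of 0.0366 to 0.564, and the authors' deposited table listed an adjusted p of 0.394. Acan and Hapln3 converge on chromosome 7, with ends 0.003 kb apart, and Hapln3 had 1 distal and 3 proximal counts.

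**Figure D3:**
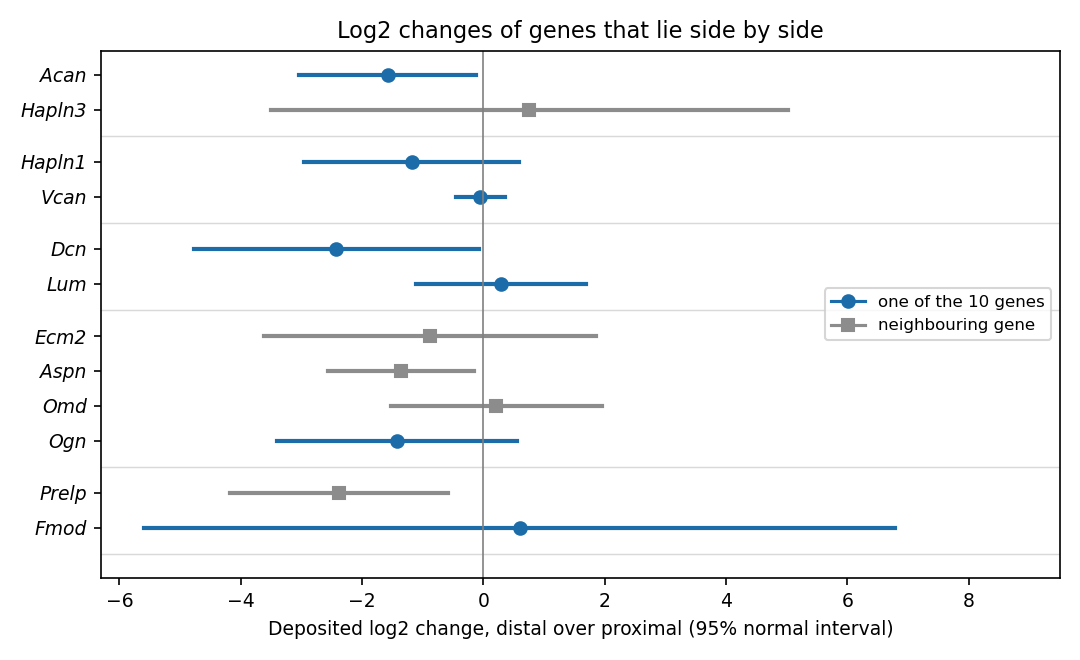
Log2 change of distal over proximal in the authors' deposited table (x axis) with a 95% normal interval, for genes of the 10 (circles) and their neighbours on the chromosome (squares), with a line between groups of neighbours. Within the groups the bars overlap, and Fmod and Hapln3, with 3 counts or fewer on each side, have the widest bars.

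The genes were next set beside the other genes of the same matrix and of its assembly and breakdown. These were 10 lists with 115 gene symbols, of which 93 were in the table. Bpnt2 was also listed under the symbol Impad1 and Cemip2 under the symbol Tmem2, so fewer genes than symbols were searched. Of these 93, the authors' deposited table called 3. Sox9, the master regulator of cartilage fate, and the protease gene Adamts20 were higher in distal, and the versican-cleaving protease gene Adamts1 was higher in proximal. At an unadjusted p under 0.05 there were 15, 6 toward distal and 9 toward proximal.

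Of the other lecticans, link proteins and matrilins, 5 of 8 were in the table and none was called. The matrilins had values on opposite sides. Matn2, found in many connective tissues, had 2 distal and 42 proximal counts and a log2 change of -2.60 (SE 1.03, adjusted p 0.445, by the authors' deposited table). The cartilage matrilin gene Matn3 had counts of 9, 8, 5, 17 and 0 in distal and 12, 7, 21, 2 and 5 in proximal. Its sides overlapped, and its log2 change in the authors' deposited table was 1.47 (SE 0.61, adjusted p 0.510).

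Of the other small leucine-rich repeat proteins 8 of 14 were in the table, with Prelp and Aspn the only ones at an unadjusted p under 0.05. Tsku, a secreted regulator of growth factor signalling, had 14 distal and 53 proximal counts and a ratio of distal to proximal per size factor of 0.871. The list of other cartilage matrix proteins had 8 of 12 genes in the table and none with an unadjusted p under 0.05. Its members with the highest means were Cytl1, with 17 distal and 74 proximal counts, and Mgp, an inhibitor of calcification, with 14 and 90. The ratio of distal to proximal per size factor was 0.757 for Cytl1 and 0.513 for Mgp. The exact 95% counting intervals were 0.419 to 1.30 and 0.270 to 0.906.

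None of the 8 cartilage collagens, all in the table, was called. By the authors' deposited table, Col2a1, the main collagen of cartilage, had a log2 change of 0.57 (SE 0.48) and Col9a1 one of 0.14 (SE 0.20). Col9a2 had -0.73 (SE 0.31, adjusted p 0.595, by the authors' deposited table). Of 12 cartilage regulators 11 were in the table. Sox9 had a log2 change of 0.69 (SE 0.13, adjusted p 4.7e-05, by the authors' deposited table). By the authors' deposited table Trps1, a repressor in growth plate cartilage, had -0.49 (adjusted p 0.117) and the joint marker Gdf5 -1.07 (adjusted p 0.460). Sox9 was higher in distal, and Acan and Hapln1, which Sox9 is known to activate, had the lower distal values given above; the difference between the genes was not tested.

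The enzymes that build and sulfate chondroitin sulfate chains, without which aggrecan and versican do not swell, had no called gene. Of the symbols listed, 13 of 14 (linker and chain) and 13 of 15 (sulfation and epimerization, with Bpnt2 listed also as Impad1) were in the table. Xylt2, which adds the first sugar of the linker, had 17 distal and 22 proximal counts and a log2 change of 1.34 (SE 0.57, adjusted p 0.577, by the authors' deposited table). For Papss2, which makes the sulfate donor, the authors' deposited table listed 0.79 (SE 0.34, adjusted p 0.571). Ugdh and Chsy1, with the highest means of the linker and chain list, and the phosphatase gene Bpnt2, with the highest of the sulfation list, stood at -0.23 (SE 0.21), -0.14 (SE 0.27) and -0.08 (SE 0.19) by the authors' deposited table. Papss1, which also makes the sulfate donor and was named after its value was seen, had 0.41 (SE 0.23, adjusted p 0.991) by the authors' deposited table. None of the 10 hyaluronan genes in the table had an unadjusted p under 0.05, and neither did any of the 10 heparan sulfate proteoglycan cores. Has2, the main hyaluronan synthase of limb mesenchyme, had counts of 4, 0, 1, 1 and 4 in distal and 8, 5, 6, 7 and 9 in proximal. By the authors' deposited table the log2 change was -0.15 (SE 0.37) for the hyaluronan receptor gene Hmmr and -0.07 (SE 0.38) for the hyaluronidase gene Cemip2. It was 0.08 (SE 0.12) for Gpc3 and 0.05 (SE 0.21) for Sdc1, again by the authors' deposited table.

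Of the proteases that cut aggrecan and versican, all 7 were in the table, 5 had an unadjusted p under 0.05, and the called ones lay on opposite sides. Adamts20 had counts of 6, 13, 6, 5 and 3 in distal and 3, 3, 9, 5 and 4 in proximal, with no overlap after normalization. Its log2 change in the authors' deposited table was 2.15 (SE 0.51, adjusted p 0.00477). Adamts1 had -0.83 (SE 0.21, adjusted p 0.00930, by the authors' deposited table). By the authors' deposited table, Adamts5 at -0.90 (adjusted p 0.191) and Adamts9 at 1.03 (adjusted p 0.504) were not called. Adamts15 had 1 distal and 44 proximal counts, with an adjusted p of 0.234 by the authors' deposited table.

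**Figure D4:**
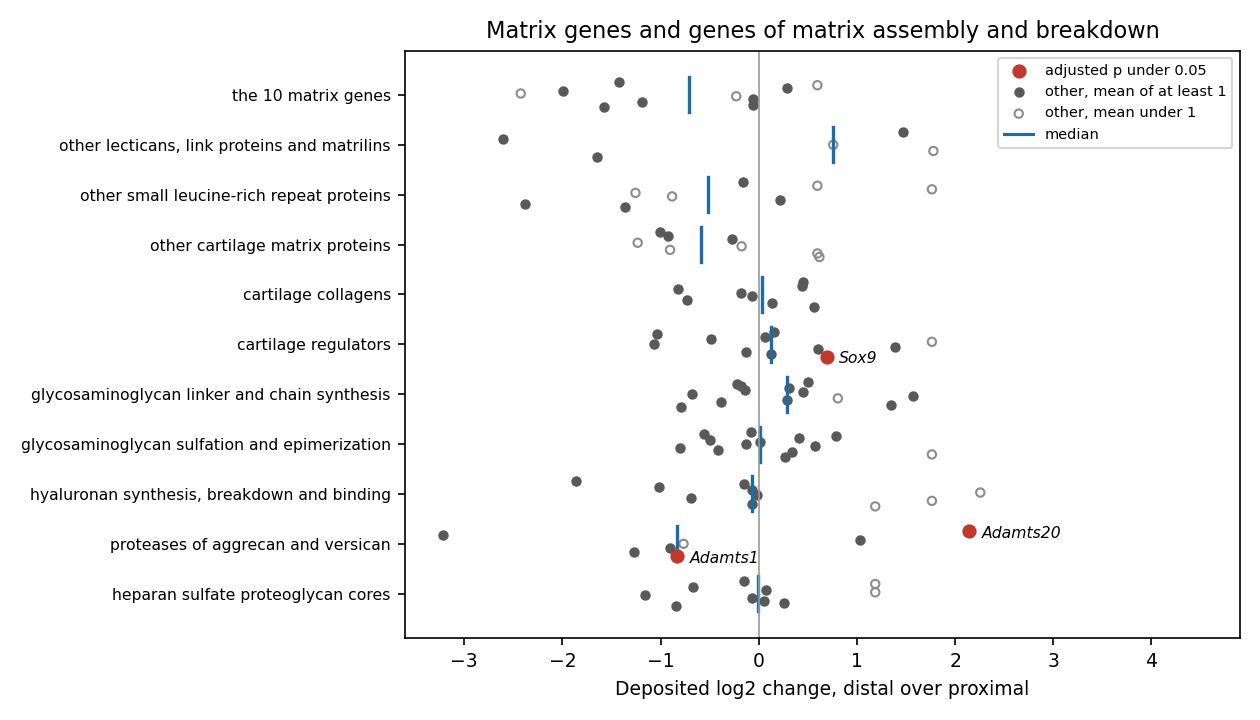
Log2 change of distal over proximal in the authors' deposited table (x axis) for the 10 matrix genes and 10 lists of other matrix genes. Each point is a gene, red where the adjusted p is under 0.05 and open where the mean is under 1, and the blue line is the list's median. The only red points are Sox9, Adamts20 and Adamts1. The medians include the open points, whose sign need not follow their counts. For the other lecticans, link proteins and matrilins the median is 0.76, but -1.64 over those with a mean of at least 1.

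Connective tissue and muscle markers had calls, and tendon, endothelial and blood, and surface ectoderm markers had none, also at an unadjusted p under 0.05. Of 8 connective tissue markers, all in the table, 5 were called, each higher in proximal (Col1a1, Col1a2, Col3a1, Osr2 and Pdgfra), while the other 3 had positive log2 changes. The counts of Osr1 and Twist2 from that list summed to a normalized level of 7.84 to 21.3 in distal and 4.66 to 10.7 in proximal, and the list's median log2 change in the authors' deposited table was -0.73. All 10 muscle markers were in the table and 4 were called, each higher in proximal. The counts of 9 of them, all but Actc1, summed to a normalized level of 0 to 3.92 in the distal regions and 23.6 to 52.0 in the proximal regions, and 5 of the 9 stood at 0 in distal. Actc1 had a log2 change of -3.11 (SE 0.40) in the authors' deposited table. Tendon markers, 5 of 6 in the table, summed to 0 to 9.61 in distal and 7.24 to 12.1 in proximal, with Tnmd at 1 count in all. Endothelial and blood markers, 5 of 10 in the table, had 8 distal and 18 proximal counts, and surface ectoderm markers, 4 of 8, had 2 and 9. Per size factor, the endothelial and blood markers summed to 0 to 7.16 in distal and 0.511 to 2.71 in proximal. The surface ectoderm markers summed to 0 to 1.96 in distal and 0.511 to 1.36 in proximal. The part of these cells in the lower distal values of Bgn, Dcn and Acan was not tested.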

How the data were processed

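The file was the authors' own distal-over-proximal comparison, with 1 line per protein-coding gene. The column names of the authors' table are those DESeq2 writes, per the file headers; DESeq2 was not run here. The mean is a signal, the normalized counts averaged over regions by the authors. Each log2 change and its error are the authors' fitted values, the deposited statistic is a score, and the p-value and adjusted p are as deposited. Builds mm10 and GRCm38 are named per the submitters' processing notes. The aligner and counting are not given in the sources used here.

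Size factors were read from the steps of the lowest means. For listed genes with a mean up to 9, counts per region were searched until the mean matched within 1e-09 and a refit gave the deposited log2 change within 5e-09. All 95 such genes had 1 match, and the next candidate of any member missed by at least 0.000102. Among the other listed genes the closest next candidate, for Mgp, missed by 2.59e-06. At higher means the search covered a limited range of side ratios, and the single match holds within it. The search was tested on simulated data, where 180 of 180 genes were recovered. That test is not read as covering means near the upper limit of 9. The counts of Bgn, with a mean of 7.27, therefore rest on its own fit. Of 1118 candidates, the set used gave the deposited log2 change within 4.78e-10, and the next missed by 0.000102. The same limit applies to Matn3, with a mean of 8.80, where the next of 9122 candidates missed by 0.000130. Sides were read from genes with 1 count: the sides as used gave their log2 changes within 8.15e-06, and swapped sides missed by up to 4.68. For Vcan and Matn4, side levels were computed from the mean and log2 change. Among 30 genes with recovered counts and a mean of at least 4, such levels had a median error of 2.66% in distal and 1.65% in proximal, and a largest error of 35.0% and 6.23%. Ratios carry exact Clopper-Pearson intervals, which cover counting error only, as does the floor of 3 counts. The plan was to give only a bound for a side at 3 counts or fewer. The ratios of Cnmd, Ogn and Prelp, with 3 distal counts or fewer, depart from it and are to be read by their intervals.

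The depth of a region was about 46991 to 118978 counts in distal and 214774 to 345649 in proximal. Positions and overlaps came from GENCODE M21, and BLAST 2.17.0 found no member with a copy at 95% identity over 200 bases near the end of its transcript. The genes and lists were chosen with earlier results of these data known. Named are all 10 genes and, from each list, genes with an adjusted or unadjusted p under 0.05 and the 2 with the highest mean; others (Omd, Ecm2, Hapln3, Has2 and markers) were chosen after their values were seen. Alternatives were other thresholds, adjustments, filters and centring, leaving out each region, and another floor. Python 3.11.15, numpy 2.4.6 and scipy 1.17.1 were used.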

Additional observations from a re-analysis of the deposited data

Results flagged for a closer look

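In the 14 sets of 5 regions tested (8 genes, a side each, leaving out sides with no counts), 3 had a region far above the others by Dixon's test. Chance gives this in about 1 in 20 sets of normally distributed values, a rate that does not hold for counts this low, so the number of such sets is not read against it. The highest distal region stood at 7.16 normalized counts for Acan and at 7.16 for Hapln1. It was the same region, with 5 counts of each gene. That region also held 8 counts of Matn3, 3 of Col11a2 and 2 of Cytl1. These do not set it apart: the deepest distal region held 9 of Matn3, 3 of Col11a2 and 1 of Cytl1. That deepest region had 1 count of Acan and 0 of Hapln1. For Fmod the highest proximal region stood at 1.02 normalized counts, which are its only 2 counts; a gene whose counts all fall in 1 region meets the criterion by construction.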

How the results depend on the processing

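The threshold of 0.01 on the adjusted p lowered the calls over all genes from 136 to 89, and the other alternatives kept them within 1.5 times. Subtracting the median of all genes split the calls into 44 (distal higher) and 100 (proximal higher), against 55 and 81. That median, 0.07, takes in the sparsest genes, and without genes of a mean under 1 it was -0.03. Calls centred on the latter value were not computed. The split, and the calls of Bgn and Trps1 with the median subtracted, carry this limit. The number of the 10 genes called was 0, and 1 (Bgn) with a threshold of 0.1, with p adjusted only where the mean was at least 1, and with the median subtracted. The companion genes called numbered 3, 4 (with Trps1) with the median subtracted, and 1 (Adamts20) with a log2 change of at least 1. With p adjusted only where the mean was at least 10, Trps1 was called and Adamts20 was not tested. The bound for Dcn was 1.03-fold with a floor of 5 counts.

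Leaving out each region, an alternative chosen after seeing the data, gave log2 changes of -2.35 to -1.69 for Bgn, -2.92 to -1.29 for Acan, -2.62 to -2.25 for Dcn, -2.97 to -0.79 for Hapln1 and -1.70 to -1.13 for Ogn. The range for Dcn, which had no distal counts, depends on the smallest fitted mean allowed and is not a check. All refits kept the size factors and the spread estimate of all regions, so their p-values do not follow the spread of the regions left. The sign changed for Cnmd (-0.64 to 0.58) and Lum (-0.26 to 0.57), and Fmod ranged from 0.24 to 1.75. Without the shallowest proximal region, Bgn had a p of 0.000372, below the largest p of a call, 0.000465; in the other 9 refits it did not pass. No paired analysis was possible because regions carry no labels that tie them across sides. Depth limits the distal side most.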

Other observations

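Counts of cartilage genes in 2 distal regions, chosen after the values were seen, are given as values, and a difference between regions was not tested. The region with 17 of the 39 distal Matn3 counts also had 8 of the 17 distal Cytl1 counts, and no count of Acan or Hapln1. The region with 5 counts each of Acan and Hapln1 had 8 counts of Matn3 and 2 of Cytl1. With 7 Acan and 6 Hapln1 counts in all of distal, a count of 0 in a region is not read as absence.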
